A study of Caenorhabditis elegans with 3 samples.

Results

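Far from any protein-coding gene start, MEP-1 was mapped to 525 autosomal regions of *Caenorhabditis elegans*, here called far intergenic regions. They were taken from the reproducible (optimal IDR) region list of a ChIP-seq experiment on GFP-tagged MEP-1. IDR, the irreproducible discovery rate, is a procedure that keeps regions ranked alike by replicates. A region belonged to the set when its point source, the base that the authors' caller marked as its summit, lay outside every protein-coding gene body, outside the stretch from 500 bp before to 100 bp after every tRNA gene start, and more than 2000 bp from the nearest protein-coding transcription start site (TSS). The 525 regions, in 524 distinct intervals, were 10.04% of the 5229 regions of the list and 12.7% of its 4133 autosomal regions. The other 3608 autosomal regions comprised 2079 in intergenic sequence near gene starts, 1413 in protein-coding gene bodies and 116 at tRNA genes.

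The study has a single group of 3 biological replicates, each of whole L4 larvae of both sexes from strain OP102. All carry the unc-119(tm4063) III allele and the insertion wgIs102, which targets mep-1, and for replicate 3 the tag is described as a C-terminal GFP-FLAG fusion. Replicates 1 and 2 came from the CGC with libraries selected at 150 to 350 bp, while replicate 3 has another source, was sonicated with a microtip and has no stated size range. The larvae were whole animals, so the cells in which a region was bound are not known, and binding was that of a tagged transgene product. The read depth is unknown, each replicate's relaxed list holds 30000 regions, and the control was not analysed here. Replicates were compared over their 5167 highest-scoring distinct regions, called top regions below. The p-values rest on these 3 samples alone. They take their lowest value whenever all 3 differ in the same direction, whatever the size or spread.

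MEP-1 is a nuclear zinc-finger protein that associates with the chromatin remodeller LET-418, a Mi-2 homologue, and the histone deacetylase HDA-1. The complex is known for keeping germline genes silent in somatic cells and for roles in vulval development. Intergenic sequence far from genes in this compact genome can hold distal enhancers, unannotated or trans-spliced gene starts, genes of non-coding RNAs, pseudogenes and repeats.

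The sequences below are the 200 bp around the point sources of 6 of the 7 highest-scoring far intergenic regions, without the third, at chd-7, and are shown because the composition described later can be read from them directly. They are the plus strand, written from 5′ to 3′, as RefSeq gives it for WBcel235, the ce11 build. Capitals mark matches on either strand to the B box of tRNA genes (GTTCNANNC, where N is any base), the purine repeat GAGAGAG, the GATA-type site TGATAA, the E-box CACGTG, the GC box core GGGCGG and the T run TTTTTTTT, and each region is named by its nearest protein-coding gene.
cmd-1 region, chrV:1151408-1151607: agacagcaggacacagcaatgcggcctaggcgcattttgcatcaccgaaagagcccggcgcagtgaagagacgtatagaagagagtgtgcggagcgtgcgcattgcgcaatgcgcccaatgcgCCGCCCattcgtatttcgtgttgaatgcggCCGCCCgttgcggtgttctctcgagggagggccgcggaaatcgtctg
F54F12.1 region, chrIII:13062582-13062781: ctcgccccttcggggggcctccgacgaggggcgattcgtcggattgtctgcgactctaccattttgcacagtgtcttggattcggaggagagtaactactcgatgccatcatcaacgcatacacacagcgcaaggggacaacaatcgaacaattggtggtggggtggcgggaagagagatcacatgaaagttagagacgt
nhr-20 region, chrIII:4237736-4237935: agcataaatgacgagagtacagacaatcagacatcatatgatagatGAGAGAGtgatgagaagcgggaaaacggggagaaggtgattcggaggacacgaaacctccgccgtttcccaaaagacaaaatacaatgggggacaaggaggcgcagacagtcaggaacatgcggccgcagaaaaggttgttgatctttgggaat
atfs-1 region, chrV:14200213-14200412: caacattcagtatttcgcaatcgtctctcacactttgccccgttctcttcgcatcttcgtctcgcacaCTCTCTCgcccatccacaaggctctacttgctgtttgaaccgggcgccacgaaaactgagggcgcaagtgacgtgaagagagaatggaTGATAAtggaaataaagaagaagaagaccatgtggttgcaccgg
nhr-88 region, chrII:2973975-2974174: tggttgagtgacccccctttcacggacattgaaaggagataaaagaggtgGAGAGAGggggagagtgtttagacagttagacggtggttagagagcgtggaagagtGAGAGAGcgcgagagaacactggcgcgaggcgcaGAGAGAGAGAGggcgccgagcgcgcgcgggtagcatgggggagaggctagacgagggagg
C33D9.3 region, chrIV:8795157-8795356: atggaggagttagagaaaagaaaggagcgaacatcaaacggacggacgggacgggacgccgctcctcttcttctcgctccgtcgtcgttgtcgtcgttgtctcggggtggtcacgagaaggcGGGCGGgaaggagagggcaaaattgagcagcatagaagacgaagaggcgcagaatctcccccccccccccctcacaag

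These 6 sequences had a GC content of 48.0% to 60.0%, against 34.5% in far intergenic sequence as a whole. The nhr-88 sequence held 3 separate stretches with GAGAGAG. The F54F12.1 sequence held none of the 6 motifs, and the cmd-1 and C33D9.3 sequences held GGGCGG, on one strand or the other, as their only match.

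The highest score of the set, 733, belonged to a region 4763 bp upstream of cmd-1, the gene of calmodulin, at the long intergenic non-coding RNA gene linc-128. Scores here are the authors' signal value, whose scale is not stated, so they rank regions within a list and are not compared between lists. The same place scored 299 in replicate 1, 291 in replicate 2 and 140.4 in replicate 3, at ranks 48, 59 and 33 of those replicates' own regions. The second region, 7240 bp upstream of F54F12.1, scored 624 in the reproducible list, and 232, 278 and 121 in replicates 1, 2 and 3. The third lay on chromosome I at 4701172-4701691, 2828 bp upstream of chd-7, which encodes a chromodomain helicase, and at linc-91, with a score of 479. Its replicate scores were 203, 179.5 and 109.

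The next places went to regions upstream of nhr-20, which encodes a nuclear hormone receptor, with 409.8, and downstream of the start of atfs-1, with 379.5. ATFS-1 is the transcription factor of the mitochondrial unfolded protein response. They were followed by nhr-88 with 370.1, C33D9.3 with 369, hif-1, the hypoxia-inducible factor, with 364.5, and Y39E4B.6 and T04C4.3 with 364 each. In replicate 3 these 10 regions ranked between 33 and 396, in replicate 1 between 48 and 314, and in replicate 2 between 59 and 349. Few ranked near the top of the whole list: 2 of the 525 far intergenic regions were among its 100 highest-scoring regions, against 56 of the 3608 other autosomal regions. The remainder of those 100 were not autosomal.

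**Figure D1:**
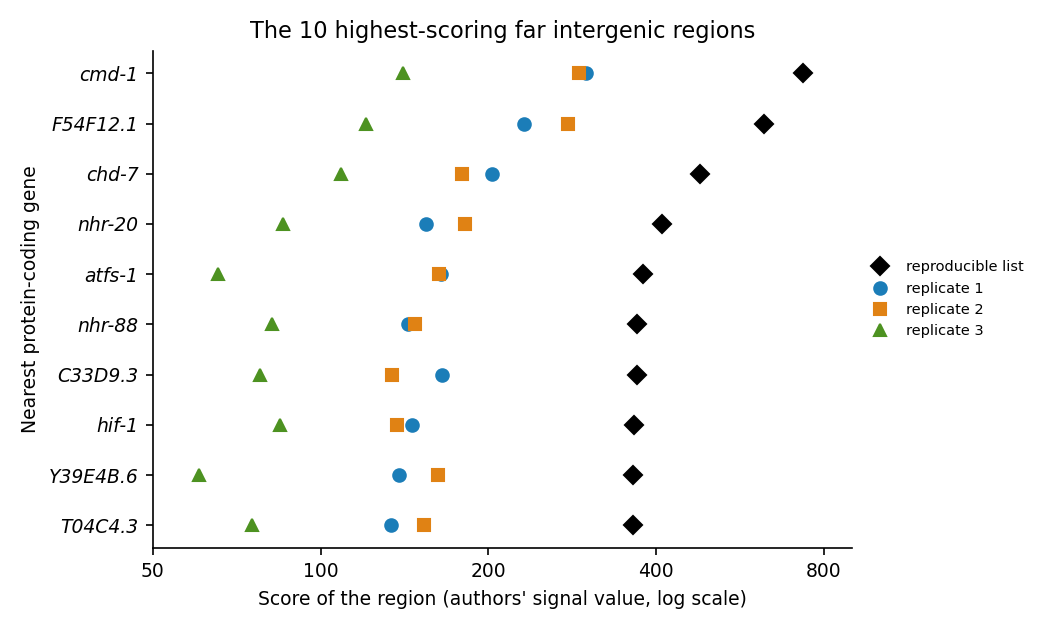
The 10 far intergenic regions with the highest scores among those in the top regions of all 3 replicates, named by the nearest protein-coding gene, with the authors' score (log axis) in the reproducible list (diamonds) and in replicates 1, 2 and 3 (circles, squares, triangles). Each list has its own scale, so symbols of one kind can be compared down the page and not across; the cmd-1 region is the highest of the 10 in every list.

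Far intergenic regions scored slightly lower than the rest. Their median score was 99.8 (range 62.3 to 733), against 107 (range 62.2 to 2188) in the other autosomal regions, and 43.1% of them, against 50.1%, lay above the median of the whole list. Among these others, regions in protein-coding gene bodies had a lower median, 93.2, and intergenic regions near gene starts a higher one, 117. The difference of median log2 scores from all other autosomal regions was -0.10 in the reproducible list. It was -0.13, -0.07 and -0.02 among the top regions of replicates 1, 2 and 3, each taken within its own list. The sign was the same in 3 of 3 replicates, and the exact two-sided sign-flip permutation test over replicates gave p = 0.25. With 3 replicates 0.25 is the smallest p this test can give, and it was also the value for each comparison below that names the test, except non-coding genes without piRNA genes.

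In all 3 replicates, top regions matched 302 of the 525 (57.5%), against a share of 60.4% over all 4133 autosomal regions. The share was 66.4% in intergenic regions near gene starts and 52.2% in protein-coding gene bodies. A further 133 far intergenic regions were matched in 2 replicates, 75 in 1 and 15 in none. Replicate 1 matched 82.1% and replicate 2 81.7% of the far intergenic regions, against 84.9% and 83.5% of the other autosomal regions. Replicate 3 matched fewer of both, 73.7% and 77.1%. The 15 unmatched regions all scored at most 71.5, near the lower end of the list. Where a replicate's region matched, its point source lay a median of 18, 16 and 24 bp from that of the reproducible list in replicates 1, 2 and 3, against 14, 12 and 23 bp for the other autosomal regions.

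Regions of the list's commonest width scored lower than both narrower and wider ones. In all, 396 far intergenic regions (75.4%) had the list's commonest width of 404 bp, against 63.1% of the other autosomal regions. The 107 narrower ones had a median score of 195, and 93.5% of them were matched in all 3 replicates. The 22 wider ones had a median of 247 and 95.45% were so matched. Those of 404 bp had a median of 87.3 and 45.7% were so matched. The other autosomal regions were matched in all 3 replicates in 92.4% of the narrower, 95.7% of the wider and 42.1% of the 404 bp ones.

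Far intergenic sequence was less dense in regions than the rest of the autosomes but denser than gene bodies. It made up 12.6 Mb, or 15.2% of the autosomes, and held 41.8 regions per Mb, against 51.5 per Mb in all other autosomal sequence. The top regions of replicates 1, 2 and 3 gave 40.3, 38.8 and 40.0 per Mb, with a mean of 39.7 ± 0.80 (SD, n = 3), against 51.2 ± 0.073 per Mb elsewhere. The ratio was 0.811 in the reproducible list and 0.787, 0.759 and 0.781 in the replicates (exact sign-flip permutation test of the log2 ratio, p = 0.25). Intergenic sequence near gene starts held 120.7 ± 2.11 regions per Mb and protein-coding gene bodies 27.0 ± 0.61, over the same replicates.

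The density fell with distance from the nearest gene start and changed less among the classes beyond 4000 bp. It was 57.6 regions per Mb at 2000 to 3000 bp, 45.8 at 3000 to 4000 bp, 29.3 at 4000 to 6000 bp, 27.0 at 6000 to 8000 bp and 26.2 beyond 8000 bp. The replicate means were 54.2 ± 0.69, 43.2 ± 1.92, 28.2 ± 2.17, 27.5 ± 3.85 and 24.2 ± 2.29 per Mb in the same order (SD, n = 3). In each replicate the density beyond 8000 bp was below those at 4000 to 6000 bp and 6000 to 8000 bp. Those at 4000 to 6000 bp and 6000 to 8000 bp had no order shared by all replicates. The median distance was 3117 bp, 102 regions lay over 5000 bp away and 14 over 10000 bp. Scores hardly followed distance: regions over 4000 bp from a start had a median score of 99.3, against 99.8 for the nearer ones.

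**Figure D2:**
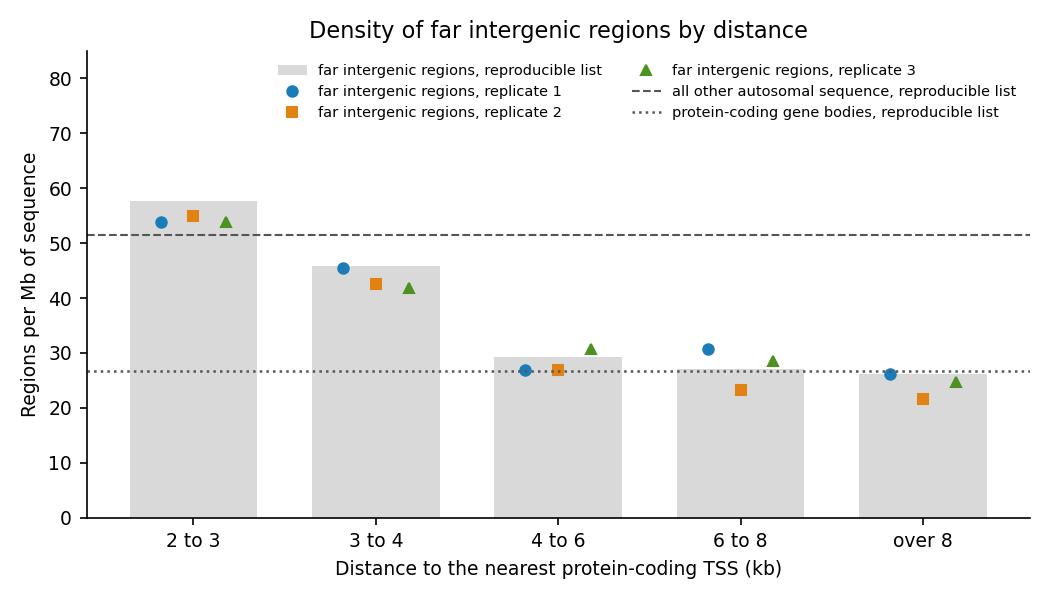
Far intergenic regions per Mb of far intergenic sequence (y axis) by distance to the nearest protein-coding TSS in kb (x axis), as bars for the reproducible list and as symbols for the top regions of each replicate; the dashed and dotted lines are the densities of all other autosomal sequence and of protein-coding gene bodies in the reproducible list. The bars go from 57.6 per Mb in the nearest class to 26.2 in the farthest, close to the 26.7 of gene bodies.

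More regions lay upstream of genes than downstream. Of the 525 regions, 370 (70.5%) lay upstream of the nearest TSS, a side that holds 61.2% of far intergenic sequence. In the replicates the upstream share was 69.7 ± 0.96% (SD, n = 3), and the upstream density was 45.2 ± 1.51 per Mb against 30.9 ± 0.41 on the downstream side (exact sign-flip permutation test, p = 0.25). Gaps between divergent genes held 46.3 regions per Mb and gaps between genes in tandem 44.9, while gaps between convergent genes, which hold no gene start at either edge, held 25.8. In the replicates these were 43.8 ± 1.87, 42.7 ± 1.25 and 24.4 ± 3.32 per Mb. Divergent gaps held 44.3, 41.8 and 45.4 per Mb in replicates 1, 2 and 3, and tandem gaps 43.1, 41.3 and 43.7. That difference was small but of the same sign in each replicate, and convergent gaps were below both in each.

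Sequence just behind genes was dense in regions. Within 500 bp past the 3′ end of a protein-coding gene lay 92 regions, at 90.7 per Mb, against 37.5 per Mb in the remaining far intergenic sequence. The values were 84.8, 90.7 and 69.0 per Mb in replicates 1, 2 and 3, against 36.4, 34.2 and 37.4 (exact sign-flip permutation test, p = 0.25). Those with the highest scores, named after their values were seen, lay behind nuo-4 with 341, ZK353.9 with 313, ztf-27 with 309 and F44E5.4 with 308. The one behind nuo-4 also lay 2028 bp upstream of ogt-1, the gene of O-GlcNAc transferase. Next by score came the region behind fat-1, an omega-3 fatty acid desaturase gene, with 279, at 91 bp past the gene's end. Gaps under 5000 bp held 58.2 regions per Mb, those of 5000 to 10000 bp 45.8, those of 10000 to 20000 bp 35.4 and longer ones 23.3.

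Base composition set the point sources apart from the sequence around them. The 200 bp at the 525 point sources had a mean GC content of 42.6%, against 33.9% in windows of the same length centred 500 bp to either side, a difference of 8.76 percentage points. At the replicates' own point sources it was 8.41, 8.19 and 9.28 points (exact sign-flip permutation test, p = 0.25). In the other autosomal regions the same difference was 4.68 points in the reproducible list, from 41.0% at the point source and 36.3% in the flanks. Among these it was larger than in the far intergenic regions at tRNA genes, 10.9 points. It was 4.475 points in intergenic regions near gene starts and 4.479 in protein-coding gene bodies. In 50 bp windows at the point source itself GC content was no higher, 44.2% in far intergenic regions and 44.7% in the others, so the larger contrast came with lower flanks and a wider rise. Over the replicates the difference from the flanks averaged 8.62 ± 0.57 points in far intergenic regions against 4.45 ± 0.77 in the others, larger in 3 of 3 (exact sign-flip permutation test, p = 0.25). At 100 bp before the point source GC content was 40.4% in far intergenic regions and 36.8% in the others.

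GC content went with the score. The 250 regions above the set's median GC content had a median score of 122, against 88.4 in the other 275, and 69.2% of them, against 46.9%, were matched in all 3 replicates. The log2 difference was 0.35, 0.33 and 0.57 in the scores of replicates 1, 2 and 3. The part of GC content in the scores was not tested. Fewer bases were soft-masked as repeats or low-complexity sequence at the point sources, 24.2% against 43.8% in the flanks and 42.2% in far intergenic sequence as a whole, and the 53 regions with at least 50% of their 200 bp masked had a lower median score, 81.2 against 100.5.

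Repeats of G and A were the commonest of the 6 motifs in the set. GAGAGAG, which resembles the site of GAGA-type factors known from Drosophila, stood in 178 of the 525 windows on one strand or the other (33.9%), against 3.05% of the flanks and 3.35% of 200 bp tiles of far intergenic sequence. In the other autosomal regions it stood in 19.7%. The shares at the replicates' own point sources were 31.8%, 31.4% and 30.5% in far intergenic regions, against 19.5%, 18.4% and 19.1% in the others, with no overlap between them (exact sign-flip permutation test, p = 0.25). Runs of at least 10 bp of alternating G and A were found in 81 windows (15.4%), against 0.667% of the flanks and 7.10% of the other autosomal regions, and the longest was 83 bp. Each longer match also holds shorter ones, so these counts overlap.

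Of all hexamers, counted with their reverse complements, the 5 with the largest excess over the flanks consisted of G and A alone. GAGAGA stood in 53.7% of windows against 10.6% of flanks, AGAGAG in 49.9% against 8.76%, AAGAGA in 49.7% against 13.9%, AGAGAA in 52.8% against 17.1% and GAGAAA in 52.8% against 24.2%. The largest deficits were those of AAAATT, in 29.0% against 70.6%, and AAATTT, in 15.8% against 50.5%. In far intergenic tiles those 2 stood in 66.5% and 46.4%, so the flanks resembled far intergenic sequence in general. These hexamers overlap one another and share windows, so they are not separate findings.

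The other motifs differed less. CACGTG, the E-box of bHLH factors, stood in 9.71% of far intergenic windows against 3.62% of flanks, and in 6.90% of the other autosomal regions. GGGCGG, the core of GC boxes, stood in 10.1% against 3.91%, and in 10.2% of the others. TGATAA, which intestinal GATA factors bind, stood in 21.7% against 19.0%, and TTTTTTTT in 19.2% against 25.6%. GTTCNANNC, the B box of tRNA gene promoters, stood in 7.24% against 7.05% of flanks, near its 6.67% in far intergenic tiles, while 89.7% of the regions at tRNA genes held it.

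**Figure D3:**
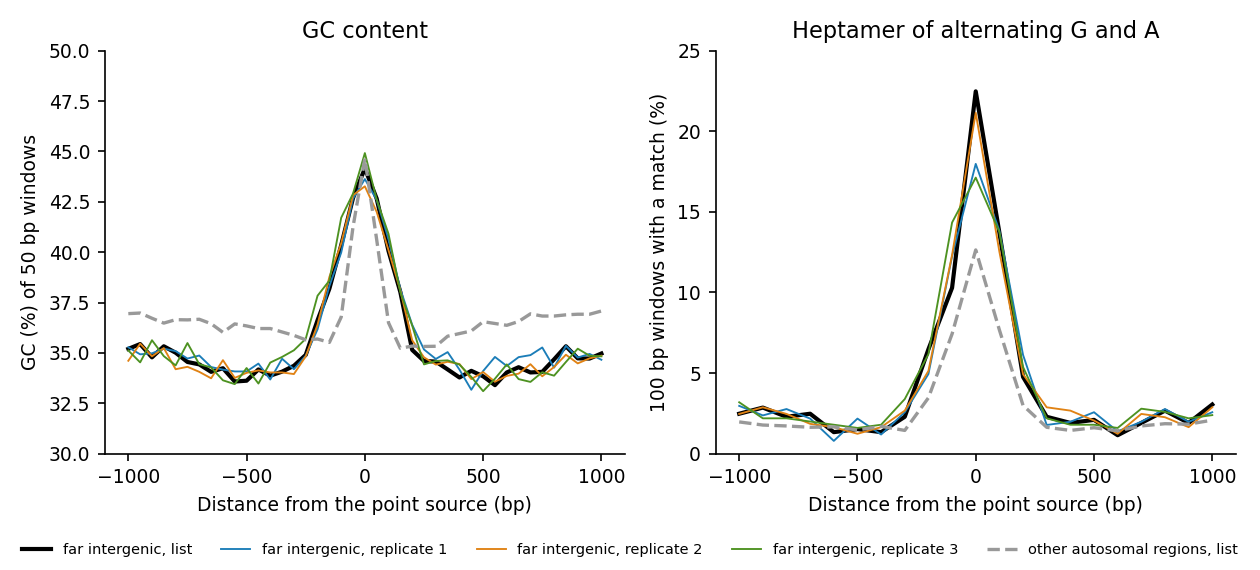
GC content in 50 bp windows (left) and the share of 100 bp windows with a heptamer of alternating G and A on either strand (right) by distance from the point source in bp. Black lines are the 525 far intergenic regions, coloured lines the far intergenic top regions of each replicate and dashed grey lines the other autosomal regions of the list; at the point source 22.5% of far intergenic windows held the heptamer against 12.6% of the others.

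Among the far intergenic regions, those with GAGAGAG scored higher, with a median of 116 against 94.8, and by 0.21, 0.11 and 0.20 on the log2 scale in replicates 1, 2 and 3. With the set divided by score into 4 classes of nearly equal size, a split made after the values were seen, it stood in 45.0% of the highest class, 33.6% and 34.4% of the middle ones and 22.7% of the lowest. It also varied by chromosome, from 44.0% on I to 18.2% on V, with II, III and IV at 31.3%, 38.5% and 36.9%. At the replicates' own point sources it averaged 38.9 ± 2.29% on I and 18.5 ± 1.75% on V (SD, n = 3), which do not overlap. Far intergenic tiles held it in 4.40% on I, 3.54% on II, 4.17% on III, 2.73% on IV and 2.80% on V. In the other autosomal regions it stood in 22.5% on I, 18.1% on II, 20.6% on III, 20.9% on IV and 15.6% on V.

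The regions behind gene ends did not share this composition. Of the 92 within 500 bp past a 3′ end, 7 (7.61%) held GAGAGAG, against 171 of the other 433 (39.5%). At the replicates' own point sources the shares averaged 7.47 ± 2.32% against 36.1 ± 1.98% (SD, n = 3), a split made after the values were seen (exact sign-flip permutation test, p = 0.25). Their GC content was 36.8% at the point source and 35.4% in the flanks, while that of the others was 43.9% and 33.6%. Over the replicates the GC content at the point source was 36.9 ± 1.25% against 43.7 ± 0.22%. Their median score was 92.9 against 100.3, and 47 of 92, against 255 of 433, were matched in all 3 replicates. In gaps between convergent genes, where 35 of the 59 regions lay behind a gene end, 11.9% held GAGAGAG.

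Non-coding genes were marked very unevenly. A point source was assigned to a non-coding gene when it lay in its body or from 500 bp before to 100 bp after its start, by which 135 of the 525 regions (25.7%) had one, while such windows cover 31.8% of far intergenic sequence. The difference from the share of sequence was -6.05 percentage points in the reproducible list and -6.47, -4.66 and -4.48 in replicates 1, 2 and 3 (exact sign-flip permutation test, p = 0.25). In the list it shrank to -3.96, -3.87 and -5.94 points with replicate 1, 2 or 3 left out, over the regions matched in both others, and to -1.34 points over 3000 bp from a TSS. The windows of different types overlap, so a region can count under several. They made up 0.0253 Mb for snoRNA genes, 0.0316 Mb for miRNA genes and 1.97 Mb for pseudogenes. Short genes have windows made mostly of sequence near the start and long genes windows made mostly of gene body. The densities of the types below were not adjusted for this.

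Genes of small nucleolar RNAs, which guide the modification of ribosomal and other RNAs, had the densest regions. Their windows held 9 regions at 355.5 per Mb, and 474 ± 68.4 per Mb in the replicates (SD, n = 3), against 38.8 ± 0.90 in the rest of far intergenic sequence (exact sign-flip permutation test, p = 0.25). All 9 were matched in all 3 replicates, against 60.4% of all autosomal regions. In the whole set the share so matched rose from 8.33% in the lowest of the 4 score classes to 97.7% in the highest. The 9 scored 136 to 276 with a median of 209, and none held GAGAGAG. The highest of them was at Y74C9A.6 near the end of chromosome I, at 3689-4076, with 276 in the list and 104, 118 and 58.7 in replicates 1, 2 and 3.

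MicroRNA genes held 11 regions at 347.8 per Mb, and 358 ± 18.3 per Mb in the replicates, against 38.9 ± 0.77 elsewhere. Of these 11, with a median score of 109, 10 (90.9%) were matched in all 3 replicates, against 60.4% of all autosomal regions. The strongest was the widest region of the set, 1221 bp on chromosome IV at 14033023-14034243, whose point source lay at mir-52 and 3 ncRNA genes and scored 229, with 102, 96.6 and 49.4 in replicates 1, 2 and 3. Named after their values were seen, mir-80 followed with 206 and mir-241 with 194. A separate region of the same gap lay at mir-48 with 110.1; mir-48 and mir-241 belong to the let-7 family, which times larval development. The sole microRNA region not matched in all 3 was that at mir-228.

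Genes annotated as ncRNA held 76 regions at 113.1 per Mb, with 112.6 ± 0.86 in the replicates, and lincRNA genes 14 at 103.6 per Mb, with 98.6 ± 11.3. The highest ncRNA region lay at T19C3.11 with a score of 340.3, and 127, 157 and 57.6 in replicates 1, 2 and 3. Of the lincRNA regions, the 2 strongest were those at linc-128 and linc-91 given above. All 3 replicates matched 9 of the 14 (64.3%), against 60.4% of all autosomal regions. A single region, near tax-6, the calcineurin gene, lay at an antisense RNA gene, C02F4.12, with 76.7. Antisense, ncRNA and lincRNA genes overlap one another, and ChIP fragments carry no strand, so the gene concerned cannot be told apart.

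Pseudogenes and piRNA genes lay at the other extreme. Pseudogene windows cover 15.7% of far intergenic sequence and held 12 regions, 6.10 per Mb, with 5.59 ± 0.51 in the replicates against 46.0 ± 0.88 elsewhere (exact sign-flip permutation test, p = 0.25). The highest, next to F07H5.13, scored 247.5. Windows of piRNA genes, which encode the small RNAs of germline surveillance, held 28 regions at 21.2 per Mb. In the replicates they held 16.7 ± 0.76 per Mb against 42.4 ± 0.98 elsewhere. Whole stretches of 100 kb with at least 50 piRNA genes were also sparse, at 26.9 per Mb in the list. Their replicate mean was 22.8 ± 1.01 per Mb against 42.4 ± 1.04 elsewhere. Whether the low density belonged to the genes or to these stretches was not tested. No region lay at an rRNA or snRNA gene, whose windows made up 0.0176 and 0.0128 Mb of far intergenic sequence. Without piRNA genes, the difference of all non-coding genes from the share of sequence was -1.17 points in the list. The shares were then 21.7%, 22.8% and 23.3% in replicates 1, 2 and 3, on both sides of the 22.3% of sequence (exact sign-flip permutation test of the densities, p = 0.75), so no direction held without piRNA genes.

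**Figure D4:**
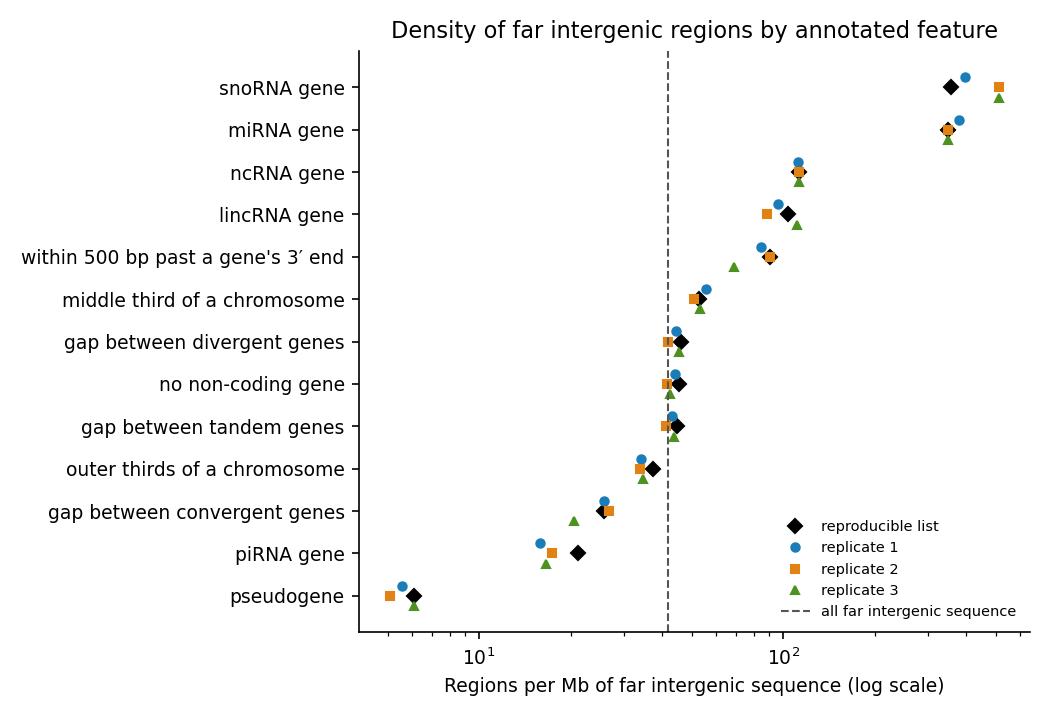
Far intergenic regions per Mb of far intergenic sequence (log axis) for sequence at each kind of annotated feature, as diamonds for the reproducible list and as circles, squares and triangles for the top regions of replicates 1, 2 and 3; the dashed line is the 41.8 per Mb of all far intergenic sequence. snoRNA and miRNA genes lie at 355.5 and 347.8 per Mb and pseudogenes at 6.10.

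Along the chromosomes the regions favoured the centres. Each autosome was divided into 3 equal lengths, and the end segments hold 70.9% of far intergenic sequence and 63.2% of the regions, a difference of -7.71 percentage points, and -11.1, -9.14 and -9.59 in replicates 1, 2 and 3 (exact sign-flip permutation test, p = 0.25). The density was 37.3 per Mb in the end segments and 52.9 in the middle segments. In the list it was lower in the end segments on all 5 autosomes, by the widest margin on IV, at 31.3 against 53.9 per Mb. Chromosome III was the densest at 57.1 regions per Mb, followed by I at 49.2, II at 44.0, IV at 36.9 and V at 32.0. In the replicates III had 54.3 ± 0.80 and I 48.6 ± 1.43, V had 29.3 ± 2.43 and IV 33.9 ± 0.59 (SD, n = 3).

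The regions were not spread singly over the gaps. They lay in 380 gaps between protein-coding genes, of 3752 that contain far intergenic sequence, and 234 (44.6%) shared their gap with another far intergenic region. In all, 34 gaps held at least 3. Regions in shared gaps had about the same median score as single ones, 100.6 against 98.7. The intervals of 20 regions overlapped that of another, so they share reads and are not independent.

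The fullest gap, 18574 bp on chromosome II at 6816434-6835007, held 10 regions between snt-1, the gene of synaptotagmin, and egl-27, which encodes an MTA-like protein of the kind found in NuRD complexes. Their scores were 64.8 to 150.1, and 4 were matched in all 3 replicates. They were spaced over 8881 bp, 6 lay at ncRNA genes of this gap, and the strongest scored 61.7, 44.4 and 43.2 in replicates 1, 2 and 3. The second gap, 35563 bp on chromosome IV at 14581040-14616602, between irld-18 and dmd-6, which encodes a DM-domain protein, held 8 regions with scores of 66.0 to 318. The strongest stood alone 13354 bp from irld-18, at the piRNA genes 21ur-865 and 21ur-12748. It scored 119, 139 and 71.7 in replicates 1, 2 and 3. The other 7 lay in the part nearer to dmd-6. Among those 7 are 2 pairs of overlapping regions, each pair matched by the same replicate regions.

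The third gap, 15313 bp on chromosome III at 13055443-13070755, separates F54F12.1 and Y39E4B.6 and held 5 regions, among them 2 of the 10 strongest of the set. The scores there were 68.7, 277, 624, 76.1 and 364, from the F54F12.1 side. The 3 high ones were matched in all 3 replicates and the 2 low ones in 1 and 2. A gap on V between asp-13 and ZC190.4 also held 5, with scores of 72.7 to 116.

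**Figure D5:**
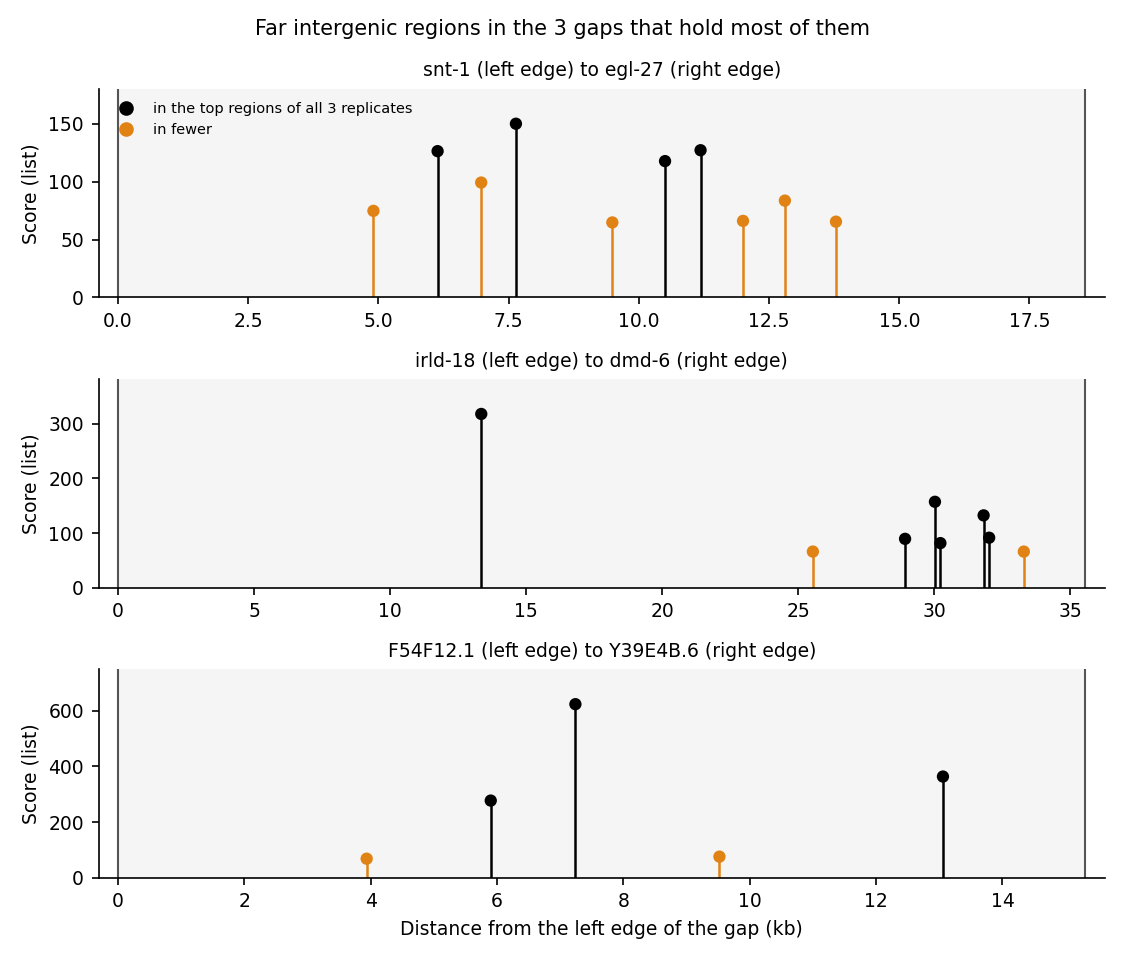
Far intergenic regions in the 3 gaps between protein-coding genes that hold most of them, by distance from the left edge of the gap in kb (x axis) and score in the reproducible list (y axis, from 0). Black marks are regions matched in the top regions of all 3 replicates and orange marks those matched in fewer; 10, 8 and 5 regions are shown, and in the irld-18 to dmd-6 gap the 318 region stands apart from the other 7.

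The nearest protein-coding genes were many. They numbered 422, of which 339 were nearest to 1 region, 74 to 2 and 9 to 3 or more. Of 13 gene lists, nuclear hormone receptor (nhr) genes were nearest to most regions, 21 of 525 at 14 genes, against 34 of the 2079 regions near gene starts. Of the 21, 15 (71.4%) were matched in all 3 replicates, against 60.4% of all autosomal regions. Besides the nhr-20 and nhr-88 regions the highest was at nhr-61, with 188.5 in the list and 74.3, 77.6 and 34.9 in replicates 1, 2 and 3. The amount of far intergenic sequence next to the genes of each list was not measured. Neither this count nor those of the lists below therefore show anything particular to the genes of a list.

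Chemoreceptor genes were nearest to 6 regions (1.14%), against 5 of the near ones (0.241%), and 1267 such genes are annotated on the autosomes. The strongest were at sri-5 with 122, srab-24 with 104.8 and str-206 with 94.8. Ribosomal protein genes were nearest to 5 (0.952%), against 1.92% of the near ones, with rps-28 at 136, rps-25 at 116 and rpl-21 at 80.5. Of the homeobox ceh genes 2 had a region (0.381%, against 1 near region, 0.0481%), ceh-48 with 150.5 and ceh-58 with 83.4. The list of C-type lectin, F-box and MATH-domain genes had 2 (0.381%, against 0.577%), at bath-44 with 167 and fbxa-30 with 90.1. The neuropeptide list had 1, at flp-15 with 108.5, and the collagen list 1, at col-108 with 66.7. Each was 0.1905% of the regions, against 0.337% of the near ones. Hox, T-box and Wnt genes had none, and none of the near regions either. The bHLH, heterochronic and histone lists also had none, against small shares of the near regions, 0.192%, 0.241% and 0.433%. Nearest genes were protein-coding by definition, so microRNA genes such as mir-48 do not count here.

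The regions farthest from a gene start were diverse. The region at the greatest distance, 16655 bp from the start of aakg-1, an AMP kinase subunit gene, lay 105 bp behind sql-1 and at a pseudogene, scored 81.4 and was matched in replicate 2 alone, with 25.8, 44.2 and 12.6 in replicates 1, 2 and 3. The second lay 16187 bp from the start of Y23H5B.5 at the snoRNA gene Y23H5B.10 and scored 213.5, with 68.0, 100.9 and 46.8. The third was the irld-18 region described above. At the other end, the regions just inside the distance rule lay 2002, 2010 and 2015 bp from the starts of hif-1, pqn-42 and chd-7, with scores of 364.5, 84.7 and 66.6. Those just outside it lay 1997, 1993 and 1993 bp from W10C8.5, clec-182 and bli-4, with 89.3, 135 and 72.4.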

How the data were processed

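ChIP-seq of GFP-tagged MEP-1 was done in 3 replicates of whole L4 larvae. The authors deposited, per the labels and file records, a relaxed region list per replicate and of the pooled replicates (30000 regions each) and an optimal IDR list, on ce11 and ce10. The ce10 lists were not used. The aligner, caller and thresholds were not stated in the labels or headers. The deposited score is the authors' signal value per region, of unstated scale, and an offset column gives the point source. Genes were those of Ensembl release 115 for WBcel235 (the ce11 assembly), and sequences and soft-masking those of RefSeq. Coordinates are 1-based. Top regions are a replicate's 5167 highest-scoring distinct regions, matched by an overlap of at least 1 bp. Densities, shares and composition were computed with Python 3.11.15, pandas 2.3.3, numpy 2.4.6 and scipy 1.17.1, and the functions were tested on simulated data. Differences were tested by two-sided exact sign-flip permutation over the 3 replicates; counts over regions have no test, since neighbouring regions are not independent. Regions were named by rule (the 10 highest scores matched in all 3 replicates, the 3 farthest, the 3 fullest gaps, the best of each non-coding type, up to 3 of each gene list, those nearest the 2000 bp limit, and 5 and 2 hexamers); exceptions are marked. The chemoreceptor list was corrected to receptor families after its values were seen. Members, lists and tests were chosen with earlier results of these data known. The alternatives tried are given at the end.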

Additional observations from a re-analysis of the deposited data

How the results depend on the processing

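The density ratio (0.653 to 0.968), the score difference, the end-segment difference, the non-coding difference and the GC difference from the flanks kept their sign under every alternative run: other distance limits, the outermost TSS, the upper part of the list, the pooled list, distinct intervals, other windows and each replicate left out. Sizes moved by over 1.5 times for the score difference, which went from -0.10 to -0.05 above the list's median score, for the end-segment difference, which went from -7.71 to -13.5 points with each autosome divided into 4 lengths, and for the non-coding difference, which went from -6.05 to between -3.96 and -3.87 without replicate 1 or 2, -3.95 in regions matched in all 3 replicates and -1.34 over 3000 bp from a TSS. The smallest non-coding differences were -1.17 points without piRNA genes, where the replicates fell on both sides of 0, and -1.24 above the list's median score. The share matched in all replicates, 57.5%, moved to 94.3% above the list's median score, 27.6% with 50% as many top regions, 48.8% when at least 50% of the region had to overlap, and 64.2% to 69.3% with each replicate left out, which asks for a match in fewer replicates. It was not run on regions matched in all 3 replicates, where it is 100 percent by construction. No paired analysis was possible because there is 1 group. Depth is unknown, scores rank regions within a list only, the lists were not called anew without a replicate, and with 3 replicates no test here can give a p under 0.25.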
